A study of Homo sapiens with 11 samples.

Results

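The chromatin-modifying enzymes described here are the protein-coding genes with KDM, KMT, HDAC, SIRT, DNMT, TET or KAT symbols followed by a digit, together with EZH1 and EZH2, chromosome Y genes left out. The naming rule gave 62 genes among the 61464 rows of the count table. No measured value entered the rule, but it was chosen with earlier results of these data known. Of these, 59 had enough counts to be tested, among 17963 tested genes. The other 3 were DNMT3L with 3 counts over all libraries, KDM4E with 1 and KDM4F with 0, where a count of 0 allows up to 3. The cells were HCT116, a long-established line from a human colorectal carcinoma, labelled as epithelial with a ras mutation. They were treated for 48 h with the Ganoderma triterpenoid extract GTEA1 (4 libraries), with the extract GTEA7 (4 libraries) or with DMSO, the solvent control (3 libraries), and all shared batch 1. By its title, the series asks by what mechanism the extracts inhibit colon cancer stemness and migration. No doses are given, so a difference between the extracts is one between these treatments and not between equal amounts of extract.

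These enzymes write and erase chemical marks on chromatin. Lysine methyltransferases (KMT, EZH) add methyl groups to histone tails and demethylases (KDM) remove them. Acetyltransferases (KAT) add acetyl groups, which open chromatin, and deacetylases (HDAC, and the NAD-dependent SIRT family) take them off. DNMT enzymes methylate cytosines in DNA, and TET enzymes oxidise the methyl group as the first step of its removal. HCT116 is a classic model for this machinery, since its DNMT1 and DNMT3B knockouts were used to show that both enzymes together maintain DNA methylation. Only RNA was measured here, not the marks or the proteins.

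Below, CPM are counts scaled to library size with TMM factors. A value after ± is the SD over libraries for CPM and the standard error of the fit for a log2 fold change. A gene passed at an adjusted p under 0.05 in edgeR's quasi-likelihood test over all tested genes. Where a call is said to end without a library, each library was left out alone. Library totals ranged from 13742326 to 16433111 counts with GTEA1, from 14955685 to 19304211 with GTEA7 and from 13866350 to 17431515 with DMSO. Nothing in the labels says whether the libraries came from separate cultures, so the p-values measure the spread between these libraries. Epithelial markers summed to 2775 to 2905 CPM with GTEA1, 2237 to 2336 with GTEA7 and 2237 to 2387 with DMSO. Of 4 colon markers, CDX1 was at 0 counts in every library, and all 4 together stayed at or below 12.6 CPM. Leukocyte markers summed to at most 1.04 CPM in any library, with CD3E at 0. The 6 fibroblast markers, of which COL1A1 made up nearly all, summed to 38.3 to 46.4 CPM with GTEA1, 36.8 to 46 with GTEA7 and 53.9 to 55.4 with DMSO.

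With GTEA1, 21 of the 59 enzymes rose and 25 fell relative to DMSO. In such bulk RNA, fewer cells of a kind and less RNA per cell cannot be told apart. Among all tested genes 35.6% rose and 36.2% fell, so these shares lie near the background of a treatment that changed 71.8% of genes. At 1.5-fold or more, 9 enzymes rose against a background of 17.9%, and 10 fell against 21.5%. At 2-fold or more 2 rose (8.56% of all genes) and 2 fell (12.4%). The median size of change was 0.39 on the log2 scale for the enzymes and 0.47 for all genes, and the signed medians were -0.06 and -0.01. The members at the ends of the range were DNMT3B and KDM6B, which rose most, and KAT2B and KDM3A, which fell most. Without TMM factors, under library size only, the median gene shifted by -0.167 (log2), and the split became 16 higher and 34 lower.

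With GTEA7, 22 of the 59 enzymes fell and 0 rose, against 10.4% and 12% of all tested genes and 22.5% in either direction. The falls were small, between -0.76 and -0.10 on the log2 scale, and 1 of them, KDM7A, reached 1.5-fold, against 1.36% of all genes. The median log2 fold change was -0.10 for the enzymes and -0.01 for all genes. At an unadjusted p under 0.05 in edgeR 3 enzymes were higher, and limma-voom and DESeq2 each called 0 higher. In the lower direction limma-voom called 22 and DESeq2 16. With offsets for GC content and length, chosen after seeing the data, 11 were lower and 3 higher. With library size only it was 30 lower and 0 higher. Leaving out DMSO replicate 3 gave 13 lower. Both comparisons share the DMSO libraries. The plot of changes by role sets them side by side.

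Other gene programs moved in the same libraries. All 24 proliferation genes fell with GTEA1 (median -1.87), and their summed level was 837 to 1013 CPM with GTEA1, 3058 to 3408 with GTEA7 and 3368 to 3511 with DMSO. With GTEA7 6 of the 24 fell (median -0.01). Of 18 hypoxia genes 2 rose and 15 fell with GTEA1, and 6 fell with GTEA7, with sums of 3722 to 3826, 4885 to 5476 and 5671 to 5805 CPM in GTEA1, GTEA7 and DMSO libraries. DNMT1, EZH2 and HDAC1, described below, fell beside the proliferation genes, and KDM3A beside the hypoxia genes, but what part either program has in their levels was not tested.

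**Figure D1:**
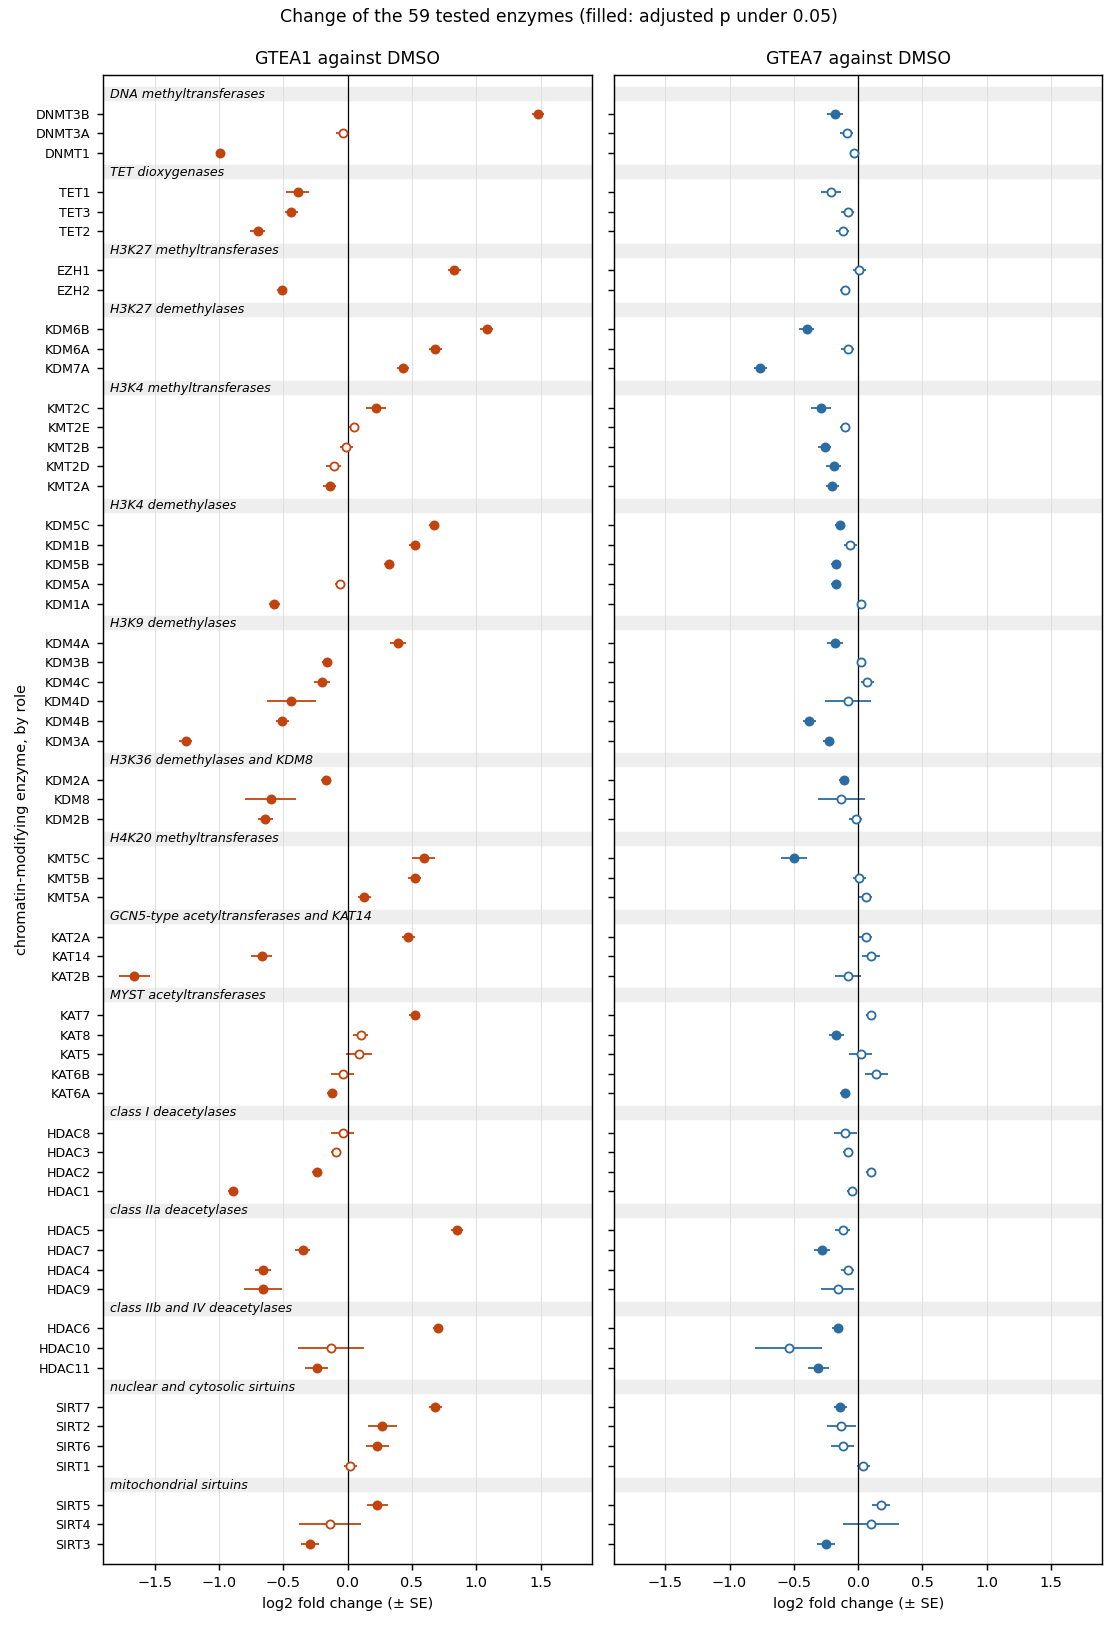
Log2 fold change of each of the 59 tested enzymes, with GTEA1 against DMSO on the left and with GTEA7 against DMSO on the right, grouped by role (bars: standard error; filled points: adjusted p under 0.05). Changes with GTEA1 run from -1.66 for KAT2B to 1.48 for DNMT3B, while those with GTEA7 run from -0.76 for KDM7A to 0.18 for SIRT5, which did not pass.

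The DNA methyltransferases moved in opposite directions with GTEA1. DNMT3B, which places new methylation, was detected at 99.7, 112, 120 and 114 CPM in the GTEA1 libraries, 38.2, 35.9, 33.9 and 33.6 in the GTEA7 libraries and 39.1, 40.1 and 40.9 in the DMSO libraries. Every GTEA1 library lay above every DMSO library, by a log2 fold change of 1.48 ± 0.05 (2.78-fold, adjusted p = 3.8e-29). Every GTEA7 library lay just below them, at -0.18 ± 0.06 (adjusted p = 0.021). That small fall did not pass with the GC and length offsets (-0.12, adjusted p = 0.13). The GTEA7 call of DNMT3B ended on omission of GTEA7 replicate 3 or 4 or of DMSO replicate 2 or 3, at -0.17 to -0.15.

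DNMT1, which copies methylation onto newly made DNA, went the other way. It had 135, 138, 137 and 140 CPM in GTEA1 libraries, 268, 269, 277 and 261 CPM in GTEA7 libraries, and 272, 273 and 278 CPM in DMSO libraries. The GTEA1 libraries lay far below the rest, at -0.99 ± 0.03 (adjusted p = 1.6e-30), while GTEA7 and DMSO libraries overlapped (-0.03 ± 0.03, 95% interval -0.09 to 0.04). DNMT3A, the second enzyme of new methylation, passed in neither comparison, at -0.04 ± 0.05 with GTEA1 and -0.09 ± 0.05 with GTEA7. Per kilobase of transcript, the ratio of DNMT3B to DNMT1 was 0.918 to 1.09 with GTEA1, 0.152 to 0.178 with GTEA7 and 0.18 to 0.184 with DMSO. Among the partners and readers of DNA methylation the 3 largest changes with GTEA1 were falls: UHRF1, which guides DNMT1 to the replication fork, at -1.71 ± 0.05, the remodeller HELLS at -1.86 ± 0.05 and its partner CDCA7 at -1.25 ± 0.06.

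All 3 TET enzymes fell with GTEA1. TET2 was measured at 21.6, 22.8, 23.4 and 23.8 CPM with GTEA1, 33.4, 33.4, 36.3 and 33.8 CPM with GTEA7 and 37.6, 36.8 and 37.5 CPM with DMSO. Its GTEA1 libraries were all lowest, with a log2 fold change of -0.70 ± 0.06 (adjusted p = 2e-15). For TET3 the levels were 32.7, 34.1, 33 and 32.6 CPM in the GTEA1 libraries, 43.1, 41.2, 43 and 43.3 in the GTEA7 libraries and 45.7, 45.7 and 43.6 in the DMSO libraries. The same separation held, at -0.44 ± 0.05 (adjusted p = 8.6e-11). TET1, at a mean of 12.6 ± 1.2 CPM with GTEA1 and 16.6 ± 0.72 with DMSO, changed by -0.39 ± 0.09 (adjusted p = 0.00012). With GTEA7 all libraries lay below all DMSO libraries for each of them, without passing the test: TET1 was at -0.21 ± 0.08 (adjusted p = 0.064), TET2 at -0.12 ± 0.05 (adjusted p = 0.086) and TET3 at -0.08 ± 0.05 (adjusted p = 0.25). Such separation below DMSO was seen for 29 of the 59 enzymes, against 14.9% of all genes. With the offsets TET1 was at -0.20, TET2 at -0.10 and TET3 at 0.01, none of them passing.

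**Figure D2:**
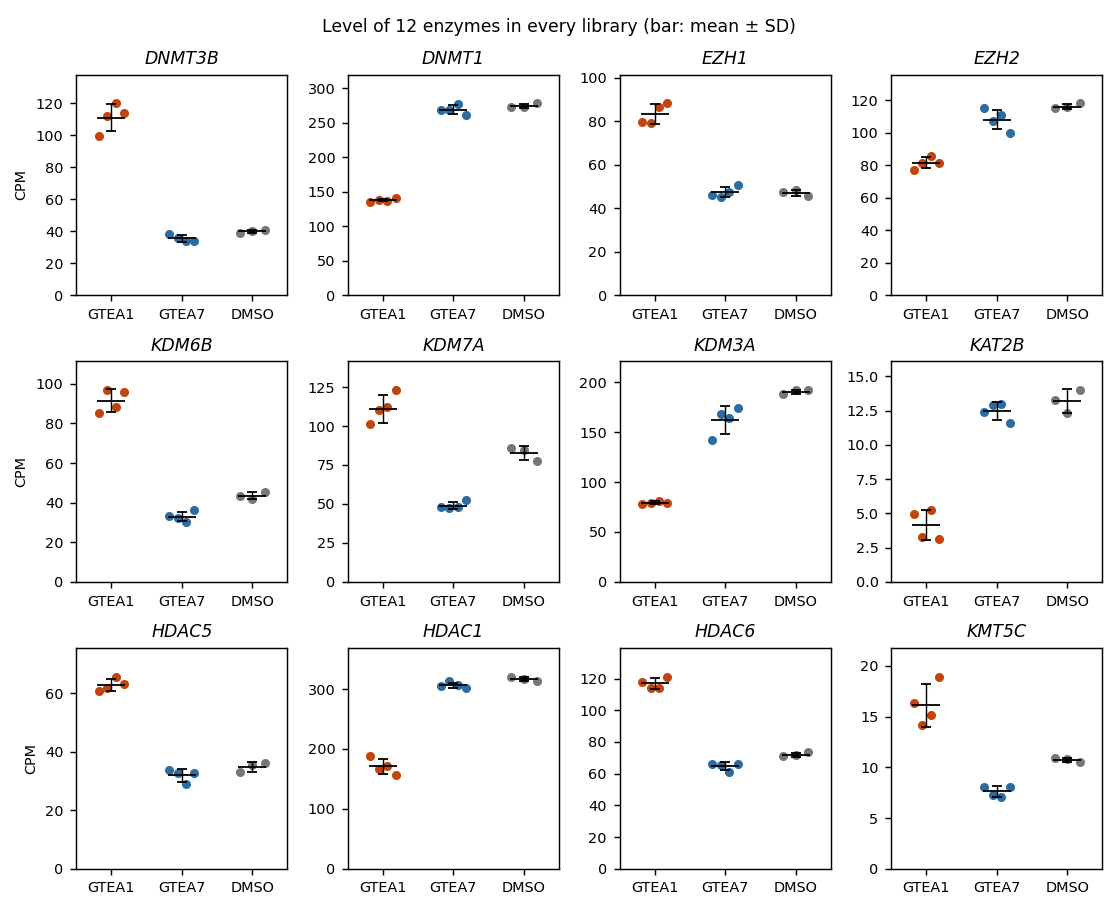
CPM of 12 enzymes in every library, with GTEA1, GTEA7 and DMSO from left to right (points: libraries; bars: mean ± SD; axes start at 0). DNMT3B, EZH1, KDM6B, HDAC5 and HDAC6 stand high with GTEA1, DNMT1, KDM3A, KAT2B and HDAC1 stand low, and KDM7A and KMT5C lie on opposite sides of DMSO with the 2 extracts.

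The methyltransferases of H3 lysine 27, the catalytic subunits of Polycomb repressive complex 2, moved in opposite directions with GTEA1. EZH1, the form common in resting cells, was present at 79.5, 79, 86.4 and 88.3 CPM in GTEA1 libraries, 46.2, 45.2, 47.6 and 50.6 CPM in GTEA7 libraries, and 47.3, 48.3 and 45.4 CPM in DMSO libraries. EZH2, the form common in dividing cells, had 77.2, 81.5, 85.8 and 81.5 CPM with GTEA1, 115, 107, 111 and 100 CPM with GTEA7 and 115, 116 and 118 CPM with DMSO. With GTEA1 every library was above DMSO for EZH1 (0.83 ± 0.05, adjusted p = 5.6e-21) and below it for EZH2 (-0.51 ± 0.04, adjusted p = 2.4e-15). With GTEA7 neither passed: EZH1 was at 0.01 ± 0.05, and EZH2 at -0.10 ± 0.04 (adjusted p = 0.059), which passed in 5 of 20 alternatives, among them the offsets (-0.13, adjusted p = 0.0092; range 0.0038 to 0.28). The ratio of EZH1 to EZH2 per kilobase was 0.553 to 0.618 with GTEA1, 0.23 to 0.288 with GTEA7 and 0.22 to 0.237 with DMSO. Among 10 tested partners of these enzymes, 3 rose and 5 fell with GTEA1. JARID2, which helps recruit the complex, rose by 1.32 ± 0.04 and PHF1, an accessory subunit, by 1.03 ± 0.07. The histone-binding subunit RBBP4 fell, at -0.70 ± 0.04. With GTEA7 the core subunit SUZ12 rose by 0.12 ± 0.04, and LCOR fell, at -0.10 ± 0.04.

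Promoters of both enzyme pairs are printed because their members moved in opposite directions with GTEA1. Each holds 250 bases before and 50 after the start given by RefSeq on GRCh38.p14, 5′ to 3′ along the gene's strand. Capitals mark the word TTTNNCGC, read on both strands, which E2F cell cycle factors can bind. EZH1 lies at chr17:42744991-42745290 and EZH2 at chr7:148884242-148884541, both on the minus strand. DNMT3B lies at chr20:32779602-32779901 on the plus strand and DNMT1 at chr19:10194904-10195203 on the minus strand.
EZH1: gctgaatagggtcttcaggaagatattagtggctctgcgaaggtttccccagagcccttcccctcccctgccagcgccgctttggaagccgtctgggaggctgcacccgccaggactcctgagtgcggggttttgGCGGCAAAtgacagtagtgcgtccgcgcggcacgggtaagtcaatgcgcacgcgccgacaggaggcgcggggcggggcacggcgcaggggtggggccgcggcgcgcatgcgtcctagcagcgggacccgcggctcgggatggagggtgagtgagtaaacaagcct
EZH2: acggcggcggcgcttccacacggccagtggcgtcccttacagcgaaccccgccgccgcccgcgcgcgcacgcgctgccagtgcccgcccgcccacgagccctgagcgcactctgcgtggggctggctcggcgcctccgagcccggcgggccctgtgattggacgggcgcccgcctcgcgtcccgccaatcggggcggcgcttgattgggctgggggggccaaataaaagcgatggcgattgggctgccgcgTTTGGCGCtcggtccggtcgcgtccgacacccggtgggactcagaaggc
DNMT3B: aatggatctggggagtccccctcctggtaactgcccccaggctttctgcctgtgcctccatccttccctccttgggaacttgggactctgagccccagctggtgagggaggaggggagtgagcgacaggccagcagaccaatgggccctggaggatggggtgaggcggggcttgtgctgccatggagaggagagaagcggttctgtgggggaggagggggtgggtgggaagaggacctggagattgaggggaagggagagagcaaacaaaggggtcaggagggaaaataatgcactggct
DNMT1: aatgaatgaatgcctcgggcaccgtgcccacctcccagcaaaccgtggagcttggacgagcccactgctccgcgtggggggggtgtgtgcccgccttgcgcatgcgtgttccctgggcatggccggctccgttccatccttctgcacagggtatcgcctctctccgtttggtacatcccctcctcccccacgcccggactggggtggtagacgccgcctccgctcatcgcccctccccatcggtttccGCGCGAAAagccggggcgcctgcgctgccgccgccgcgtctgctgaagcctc
The word was present in the promoters of DNMT1 and EZH2, which fell with GTEA1, and also in that of EZH1, which rose. It was not in the DNMT3B window printed here. A single start per gene was searched, so other starts of DNMT3B or of the other genes are not covered. Among the 56 enzymes with a promoter in the table, 6 held it (10.7%), the others being KDM1B, KMT2D and SIRT6, against 6.9% of all 27305 promoters. The CHR word TTTGAA of late cell cycle genes was in 14.3% of the enzymes' promoters and 15.4% of all. The hypoxia response core ACGTG was in 26.8% and 21.6%, the ATF4-type word TGATGNAA in 0% and 3.67%, and the AP-1 word TGANTCA in 5.36% and 7.76%. A match is a description of the letters and not a binding site.

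The demethylases of H3 lysine 27 all rose with GTEA1, and 2 of the 3 fell with GTEA7. KDM6B, a rapidly inducible enzyme also known as JMJD3, had 85.1, 96.8, 88.3 and 96 CPM in the GTEA1 libraries, 33.4, 32.2, 30.4 and 36.1 in the GTEA7 libraries and 43.2, 42 and 45.3 in the DMSO libraries. The 3 groups did not overlap, with log2 fold changes of 1.08 ± 0.05 with GTEA1 (adjusted p = 2e-24) and -0.40 ± 0.06 with GTEA7 (adjusted p = 3.3e-07). KDM7A, which also demethylates lysine 9, ran at 101, 110, 112 and 123 CPM in GTEA1 libraries, 48, 47.4, 48.1 and 52.5 CPM in GTEA7 libraries, and 86, 84.8 and 77.4 CPM in DMSO libraries. It had the deepest fall with GTEA7 of all the enzymes, -0.76 ± 0.05 (adjusted p = 5.4e-14), beside a rise of 0.43 ± 0.05 with GTEA1 (adjusted p = 1.1e-09). Its GC content is 38.5%, and with the offsets the GTEA7 value was -0.76, adjusted p = 1.4e-19. KDM6A, also called UTX and a subunit of KMT2C and KMT2D complexes, had 52.5, 54.1, 51.8 and 54 CPM with GTEA1, 32, 31.3, 29.8 and 32.7 CPM with GTEA7 and 34.8, 32.8 and 32 CPM with DMSO. It rose by 0.68 ± 0.05 with GTEA1 (adjusted p = 1.5e-16) and did not pass with GTEA7 (-0.08 ± 0.05, 95% interval -0.19 to 0.03).

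Writers of H3 lysine 4 methylation changed little with GTEA1. Of the 5 KMT2 genes 1 rose and 1 fell. KMT2C, which marks enhancers, was recorded at 139, 182, 174 and 179 CPM in the GTEA1 libraries, 121, 114, 116 and 123 in the GTEA7 libraries and 145, 145 and 143 in the DMSO libraries. The GTEA1 and DMSO libraries overlapped, and the rise of 0.22 ± 0.08 had an adjusted p of 0.024. Without GTEA1 replicate 3 or 4 or DMSO replicate 1, 2 or 3 the GTEA1 call of KMT2C was lost, at 0.20 to 0.23. It also did not pass with library size only, at 0.06. With GTEA7 all libraries lay below DMSO, at -0.29 ± 0.08 (adjusted p = 0.024). Omission of GTEA7 replicate 2 or 3 or of DMSO replicate 1, 2 or 3 ended the GTEA7 call of KMT2C, at -0.29 to -0.27.

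KMT2A, the MLL1 enzyme, had 175, 220, 206 and 215 CPM in GTEA1 libraries, 200, 191, 193 and 198 CPM in GTEA7 libraries, and 225, 229 and 222 CPM in DMSO libraries. It was lower with GTEA1 (-0.14 ± 0.05, adjusted p = 0.024), but not with the offsets (0.00, adjusted p = 0.95). The GTEA1 call of KMT2A ended on omission of GTEA1 replicate 3 or of DMSO replicate 1 or 2, at -0.15 to -0.13. With GTEA7 it fell by 0.20 on the log2 scale (adjusted p = 0.009), a call that every alternative kept. KMT2B (-0.26 ± 0.05) and KMT2D (-0.19 ± 0.06) fell with GTEA7 too, and neither passed with the offsets (-0.09, adjusted p = 0.18 and -0.01, adjusted p = 0.9). Without GTEA7 replicate 3 or DMSO replicate 2 or 3 the GTEA7 call of KMT2D was lost, at -0.18 to -0.16. A list of 11 subunits and partners of these and related complexes holds genes that not every KMT2 enzyme shares. Of the 11, 4 rose and 4 fell with GTEA1, with a median of -0.03. The largest changes were those of PAXIP1 (-0.61 ± 0.05), WDR5 (-0.35 ± 0.04) and DPY30 (0.26 ± 0.06). With GTEA7, 1 rose (DPY30 0.23) and 2 fell (CXXC1 -0.21 and HCFC1 -0.13).

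Of the 5 demethylases of H3 lysine 4, 3 rose and 1 fell with GTEA1. KDM5C was found at 166, 174, 178 and 174 CPM with GTEA1, 103, 95.2, 95.4 and 99.2 CPM with GTEA7 and 108, 107 and 110 CPM with DMSO. It rose with GTEA1 in all libraries (0.67 ± 0.04, adjusted p = 1.6e-21) and was slightly lower with GTEA7 (-0.14 ± 0.04, adjusted p = 0.0056), which did not pass with the offsets (-0.06, adjusted p = 0.25). KDM5B, an enzyme linked to slowly cycling tumour cells, showed 131, 141, 141 and 143 CPM in the GTEA1 libraries, 98.9, 95, 94.8 and 108 in the GTEA7 libraries and 111, 107 and 116 in the DMSO libraries. Its rise with GTEA1 was 0.32 ± 0.04 (adjusted p = 2.6e-09), with no overlap. Its fall with GTEA7, -0.17 ± 0.04 (adjusted p = 0.0023), came with overlapping GTEA7 and DMSO libraries. The amine oxidases KDM1A and KDM1B parted: KDM1A (LSD1), at 169 ± 4.9 CPM with GTEA1 and 252 ± 3.1 with DMSO, fell at -0.57 ± 0.04 (adjusted p = 2.9e-20), while KDM1B, at 81.2 ± 4.2 and 56.7 ± 0.35 CPM, rose by 0.52 ± 0.04 (adjusted p = 9.3e-15). Neither passed with GTEA7 (0.02 ± 0.03 and -0.06 ± 0.05). KDM5A fell with GTEA7 (-0.17 ± 0.04, adjusted p = 0.0035) and did not pass with GTEA1 (-0.06 ± 0.04). The difference of GTEA7 from GTEA1 was -0.10 ± 0.04 (adjusted p = 0.024). Omission of GTEA7 replicate 1 or 2 or of GTEA1 replicate 3 or 4 ended the between-extract call of KDM5A, at -0.10 to -0.06. With library size only that difference was 0.01. KDM5A shares exon bases with CCDC77, which has 2534 counts against 15484 of KDM5A and changed by -1.20 with GTEA1 and -0.24 with GTEA7.

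Of the 6 tested KDM3 and KDM4 genes, grouped here as demethylases of H3 lysine 9, 5 fell with GTEA1. KDM7A, which also acts on this residue, rose by 0.43, as given above. KDM3A, an oxygen-dependent enzyme and a known HIF target, had 78.1, 79.2, 81.4 and 78.6 CPM in GTEA1 libraries, 142, 168, 164 and 174 CPM in GTEA7 libraries, and 188, 192 and 192 CPM in DMSO libraries. It fell deeply with GTEA1 (-1.26 ± 0.05, adjusted p = 2.5e-23) and slightly with GTEA7 (-0.23 ± 0.04, adjusted p = 0.00012), with no overlap in either. KDM4B fell with both, at -0.51 ± 0.05 and -0.38 ± 0.05 (adjusted p = 3.5e-13 and 1.8e-08), and its means were 46.1 ± 1.6 CPM with GTEA1, 50.7 ± 3.2 with GTEA7 and 65.8 ± 2.6 with DMSO. KDM3B (-0.16 ± 0.04), KDM4C (-0.20 ± 0.06) and KDM4D (-0.44 ± 0.19) fell by smaller margins with GTEA1. With the offsets KDM4C and KDM4D did not pass (-0.11, adjusted p = 0.072 and -0.36, adjusted p = 0.089). The GTEA1 call of KDM4D ended on omission of GTEA1 replicate 2 or 4 or of DMSO replicate 2 or 3, at -0.47 to -0.17. KDM4A was the exception among the 6, at 34.3, 34, 32.6 and 36 CPM with GTEA1, 23.6, 23.5, 21.7 and 23.3 CPM with GTEA7 and 24, 26.9 and 27.5 CPM with DMSO. It rose with GTEA1 (0.39 ± 0.06, adjusted p = 1.4e-07) and was lower with GTEA7 (-0.18 ± 0.06, adjusted p = 0.027), not past the threshold with the offsets (-0.15, adjusted p = 0.067). Without GTEA7 replicate 3 or DMSO replicate 2 or 3 the GTEA7 call of KDM4A was lost, at -0.16 to -0.15.

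The H3 lysine 36 demethylases KDM2A and KDM2B, and KDM8, all fell with GTEA1. KDM2B, which also brings a variant Polycomb complex to CpG islands, was seen at 25.8, 26, 26.3 and 22.9 CPM in the GTEA1 libraries, 39.4, 39.3, 37.1 and 38.4 in the GTEA7 libraries and 41.1, 37.3 and 39.1 in the DMSO libraries. It fell with no overlap (-0.64 ± 0.06, adjusted p = 7.2e-14) and stayed near DMSO with GTEA7 (-0.02 ± 0.05, 95% interval -0.13 to 0.08). KDM2B shares exon bases with RNF34 on the opposite strand, which has 7997 counts against 6070 of KDM2B and changed by -0.48 with GTEA1 and -0.03 with GTEA7. KDM2A fell less, at -0.17 ± 0.04 with GTEA1 and -0.11 ± 0.04 with GTEA7 (adjusted p = 0.036). With the offsets its GTEA7 fall did not pass (-0.05, adjusted p = 0.35). Omission of GTEA7 replicate 1, 3 or 4 or of GTEA1 replicate 2 or of DMSO replicate 2 or 3 ended the GTEA7 call of KDM2A, at -0.11 to -0.09. KDM8, with 374 counts in all, changed by -0.60 ± 0.20 with GTEA1 (adjusted p = 0.0082). The GTEA1 call of KDM8 ended on omission of GTEA1 replicate 4, at -0.43.

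All 3 H4 lysine 20 methyltransferases rose with GTEA1. KMT5C was measured at 16.3, 14.2, 15.2 and 18.9 CPM in GTEA1 libraries, 8.06, 7.27, 7.08 and 8.08 CPM in GTEA7 libraries, and 10.9, 10.8 and 10.5 CPM in DMSO libraries. Together with KMT5B it makes the trimethyl mark of heterochromatin, and its 3 groups did not overlap: 0.59 ± 0.09 with GTEA1 (adjusted p = 1.4e-07) and -0.50 ± 0.10 with GTEA7 (adjusted p = 0.00016). KMT5B had 62.7, 70.1, 69.3 and 63.8 CPM with GTEA1, 44.6, 48, 48.6 and 46 CPM with GTEA7 and 46.9, 48.6 and 43.5 CPM with DMSO. It rose with GTEA1 (0.52 ± 0.05, adjusted p = 4.2e-13) and not with GTEA7 (0.01 ± 0.05, 95% interval -0.09 to 0.11). KMT5A, which makes the monomethyl mark, rose by 0.13 ± 0.05 (adjusted p = 0.021), with overlapping libraries and a value of -0.03 under library size only. Without GTEA1 replicate 1 or DMSO replicate 2 or 3 the GTEA1 call of KMT5A was lost, at 0.09 to 0.12.

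The acetyltransferases KAT2A and KAT2B, close paralogs, moved apart with GTEA1. KAT2B (PCAF) had 4.99, 3.31, 5.24 and 3.15 CPM in the GTEA1 libraries, 12.4, 12.9, 13 and 11.6 in the GTEA7 libraries and 13.3, 12.3 and 14 in the DMSO libraries. It fell by 1.66 on the log2 scale (adjusted p = 1.7e-17), the deepest fall among the enzymes. KAT2A (GCN5) ran at 53.8, 49.1, 50.4 and 54.7 CPM in GTEA1 libraries, 39.4, 38.4, 39.6 and 38.6 CPM in GTEA7 libraries, and 39.2, 38 and 34.8 CPM in DMSO libraries. It rose by 0.47 ± 0.05 (adjusted p = 2.4e-11). KAT14, a subunit of the ATAC complex with these enzymes, had 12.2, 11.8, 11.6 and 10.3 CPM with GTEA1, 20.9, 19.1, 18.3 and 19.6 CPM with GTEA7 and 16.6, 18.7 and 19.5 CPM with DMSO. It fell with GTEA1 (-0.67 ± 0.08, adjusted p = 3.6e-10). With GTEA7 KAT2B was at -0.08 ± 0.10 (adjusted p = 0.62), KAT14 at 0.10 ± 0.07 (adjusted p = 0.39) and KAT2A at 0.06 ± 0.05 (adjusted p = 0.47). KAT2A passed upward with the offsets (0.15, adjusted p = 0.03).

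Among the 5 MYST acetyltransferases 1 rose and 1 fell with GTEA1. KAT7 (HBO1), which acetylates H3 lysine 14 and histone H4, was present at 119, 123, 121 and 118 CPM in the GTEA1 libraries, 89, 91.5, 92.5 and 87.2 in the GTEA7 libraries and 85.8, 83.8 and 83.2 in the DMSO libraries. It rose by 0.52 ± 0.04 (adjusted p = 9.4e-17) with GTEA1, and with GTEA7 all libraries were above DMSO at 0.10 ± 0.04 (adjusted p = 0.07), which passed in 6 of 20 alternatives, among them the offsets (0.14, adjusted p = 0.0062; range 0.0062 to 0.45). KAT8 (MOF), the H4 lysine 16 enzyme, had 28.9, 31.4, 30.4 and 30.3 CPM in GTEA1 libraries, 24.9, 25.6, 24.8 and 25 CPM in GTEA7 libraries, and 26.6, 29.8 and 28.2 CPM in DMSO libraries. It was lower with GTEA7 (-0.17 ± 0.06, adjusted p = 0.029), but not with the offsets (-0.11, adjusted p = 0.2). Omission of GTEA7 replicate 1, 3 or 4 or of DMSO replicate 2 or 3 ended the GTEA7 call of KAT8, at -0.17 to -0.12. KAT6A (MOZ) had 115, 129, 122 and 122 CPM with GTEA1, 124, 124, 121 and 124 CPM with GTEA7 and 137, 129 and 131 CPM with DMSO. Its log2 fold changes were -0.12 ± 0.04 with GTEA1 and -0.10 ± 0.04 with GTEA7 (adjusted p = 0.0056 and 0.043), and with the offsets 0.00, adjusted p = 0.95 and -0.07, adjusted p = 0.14. The GTEA7 call of KAT6A ended on omission of GTEA7 replicate 1, 2, 3 or 4 or of GTEA1 replicate 2 or 3 or of DMSO replicate 1 or 3, at -0.11 to -0.08. KAT5 (TIP60) and KAT6B passed in neither comparison. Of 27 subunits of KAT complexes 15 rose and 6 fell with GTEA1, with a median of 0.12, led by JADE2 (-0.69 ± 0.07), SUPT7L (0.64 ± 0.05) and MEAF6 (0.58 ± 0.05). Among all tested genes 35.6% rose and 36.2% fell. Of 13 other acetyltransferases and cofactors 3 rose and 6 fell, with a median of -0.07, led by NCOA3 (1.11 ± 0.04), HAT1 (-0.84 ± 0.05) and GTF3C4 (-0.69 ± 0.04). With GTEA7, 1 fell (SUPT20H -0.14) among the complex subunits, and 3 fell (CREBBP -0.21, EP300 -0.13 and NAA60 -0.24) among the other acetyltransferases and cofactors.

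Among class I deacetylases 2 of 4 fell with GTEA1. HDAC1, HDAC2 and HDAC3 are catalytic subunits of the NuRD, Sin3, CoREST and NCoR complexes. HDAC1 was detected at 188, 166, 172 and 157 CPM in the GTEA1 libraries, 305, 313, 306 and 301 in the GTEA7 libraries and 320, 317 and 314 in the DMSO libraries. All GTEA1 libraries were lowest (-0.89 ± 0.04, adjusted p = 8.4e-26). HDAC2, its close paralog, averaged 184 ± 5.8 CPM with GTEA1, 232 ± 13 with GTEA7 and 217 ± 9.4 with DMSO, a smaller fall of 0.24 with GTEA1 (adjusted p = 5e-07). With GTEA7 HDAC2 was at 0.10 ± 0.04 (adjusted p = 0.056), and it passed upward in 10 of 20 alternatives, among them the offsets (0.10, adjusted p = 0.045). Over all 20 its adjusted p ran from 0.028 to 0.4. HDAC3 and HDAC8 passed in neither comparison. Of 30 tested subunits of the HDAC1, HDAC2 and HDAC3 complexes 12 rose and 7 fell with GTEA1, with a median of 0.07, led by SAP30 (-1.43 ± 0.12), RCOR2 (-1.32 ± 0.10) and NCOR1 (1.29 ± 0.06). With GTEA7 1 rose and 7 fell, against 12% and 10.4% of all genes. The rise was that of SAP18, a Sin3 subunit (0.16), and the deepest fall that of RCOR2, a CoREST subunit (-0.53 ± 0.09).

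Class IIa deacetylases, which shuttle between nucleus and cytoplasm, split into 1 rise and 3 falls with GTEA1. HDAC5 had 60.7, 61.9, 65.5 and 63.1 CPM in GTEA1 libraries, 33.7, 32.7, 28.8 and 32.8 CPM in GTEA7 libraries, and 33, 35.4 and 36.1 CPM in DMSO libraries. It rose by 0.85 ± 0.05 (adjusted p = 4.5e-20). HDAC9 was scarce, at 3.38, 4.33, 3.08 and 5.07 CPM with GTEA1, 5.36, 4.71, 6.43 and 6.17 CPM with GTEA7 and 7.05, 5.56 and 6.35 CPM with DMSO. It fell with GTEA1 (-0.66 ± 0.15, adjusted p = 7.7e-05), as did HDAC4, at 29.1 ± 2.3 CPM with GTEA1 and 45.6 ± 1.4 with DMSO (-0.66 ± 0.06, adjusted p = 2.8e-14). HDAC7 had 25.2, 22, 23.6 and 24.3 CPM in the GTEA1 libraries, 26.4, 24.1, 23.7 and 26.1 in the GTEA7 libraries and 29.3, 32.4 and 29.2 in the DMSO libraries. It fell with both extracts, at -0.35 ± 0.06 with GTEA1 (adjusted p = 2.7e-06) and -0.28 ± 0.06 with GTEA7 (adjusted p = 0.00048), the GTEA7 value being -0.16, adjusted p = 0.05 with the offsets, just short of passing.

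HDAC6, the cytoplasmic tubulin deacetylase, was found at 118, 114, 114 and 121 CPM in GTEA1 libraries, 66, 65.6, 60.9 and 65.9 CPM in GTEA7 libraries, and 71.1, 71.5 and 73.4 CPM in DMSO libraries. Its libraries rose with GTEA1 (0.70 ± 0.04, adjusted p = 6.2e-21) and fell slightly with GTEA7 (-0.16 ± 0.04, adjusted p = 0.0053), with no overlap in either. The GTEA7 fall did not pass with the offsets (-0.06, adjusted p = 0.28). HDAC11, the class IV enzyme, was at 13.3, 12.1, 10.9 and 12.1 CPM with GTEA1, 10.7, 12.1, 11.9 and 11.5 CPM with GTEA7 and 13.8, 14.8 and 14.2 CPM with DMSO. It was lower with GTEA7 (-0.31 ± 0.08, adjusted p = 0.0051; with the offsets -0.20, adjusted p = 0.072) and with GTEA1 (-0.24 ± 0.09, adjusted p = 0.012). Without GTEA1 replicate 3 or DMSO replicate 2 the GTEA1 call of HDAC11 was lost, at -0.21 to -0.19. HDAC10 had 225 counts in all and shares exon bases with MAPK12, which has 10541, and it passed in neither comparison.

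Of the nuclear and cytosolic sirtuins 3 of 4 rose with GTEA1. SIRT7, a nucleolar enzyme that removes acetyl groups from H3 lysine 18, had 74.9, 73, 74.4 and 75 CPM in the GTEA1 libraries, 41.1, 43, 43.2 and 41.6 in the GTEA7 libraries and 45.9, 44.7 and 48.9 in the DMSO libraries. It rose with GTEA1 (0.68 ± 0.05, adjusted p = 1.2e-18) and was lower with GTEA7 (-0.14 ± 0.05, adjusted p = 0.035), but not with the offsets (-0.04, adjusted p = 0.61). Omission of GTEA7 replicate 1 or 4 or of DMSO replicate 1 or 3 ended the GTEA7 call of SIRT7, at -0.14 to -0.10. SIRT7 overlaps exon bases of MAFG on the same strand, and MAFG rose by 1.30 with GTEA1, so reads of their shared bases cannot be told apart. SIRT2, mainly cytosolic, was at 8.82, 7.71, 10 and 9.12 CPM in GTEA1 libraries, 6.62, 6.91, 6.49 and 6.96 CPM in GTEA7 libraries, and 6.99, 7.4 and 7.87 CPM in DMSO libraries. The GTEA1 and DMSO libraries overlapped, at 0.27 ± 0.11 (adjusted p = 0.019). The GTEA1 call of SIRT2 ended on omission of GTEA1 replicate 3 or of DMSO replicate 1, at 0.22 to 0.23. SIRT2 shares exon bases with NFKBIB, which has 1403 counts against 1351 of SIRT2 and changed by 0.49 with GTEA1. SIRT6 rose by 0.23 ± 0.09 (adjusted p = 0.016). Without DMSO replicate 1 the GTEA1 call of SIRT6 was lost, at 0.18. With library size only neither SIRT2 (0.11) nor SIRT6 (0.07) passed. SIRT1, the best-studied member, had 42.9 ± 0.97 CPM with GTEA1, 43.6 ± 2 with GTEA7 and 42.3 ± 0.78 with DMSO and passed in neither comparison (95% intervals -0.08 to 0.12 and -0.05 to 0.14).

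Of the mitochondrial sirtuins, SIRT3, the main mitochondrial deacetylase, had 18.8, 20, 19.8 and 18.8 CPM with GTEA1, 20.6, 19.2, 20.5 and 19.2 CPM with GTEA7 and 22, 22.3 and 26.9 CPM with DMSO. It fell with GTEA1 (-0.29 ± 0.07, adjusted p = 0.00029) and with GTEA7 (-0.25 ± 0.07, adjusted p = 0.0052). Omission of DMSO replicate 3 ended the GTEA7 call of SIRT3, at -0.16. SIRT3 shares exon bases with PSMD13, which has 21826 counts against 3663 of SIRT3 and changed by -0.13 and 0.16 with the extracts. SIRT5 rose with GTEA1 (0.23 ± 0.08, adjusted p = 0.0061), though not with library size only (0.07), and SIRT4, with 278 counts in all, passed in neither comparison.

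Across the whole transcriptome the GTEA7 changes varied with base composition. Of genes with at most 40% GC, 4.75% fell and 20.2% rose with GTEA7, whereas of those above 60% GC 22.5% fell and 3.31% rose. The 22 enzymes that fell had a median GC content of 56.2%, against 49.4% for the other 37 and 48.5% for all genes. Their transcripts had a median length of 5900 nt, against 4655 and 2923. With GC and length offsets 10 of the 22 calls remained: KDM3A, KDM4B, KDM5A, KDM5B, KDM6B, KDM7A, KMT2A, KMT2C, KMT5C and SIRT3. EZH2 was added among falls, and HDAC2, KAT2A and KAT7 among rises. KDM3A, KDM4B, KDM5A, KDM5B, KDM6B, KDM7A, KMT2A and KMT5C, 8 in all, kept their call under every alternative. Libraries of GTEA7 and DMSO did not overlap for 29 enzymes in the lower direction and 3 in the higher, against 14.9% and 15.6% of all genes.

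**Figure D3:**
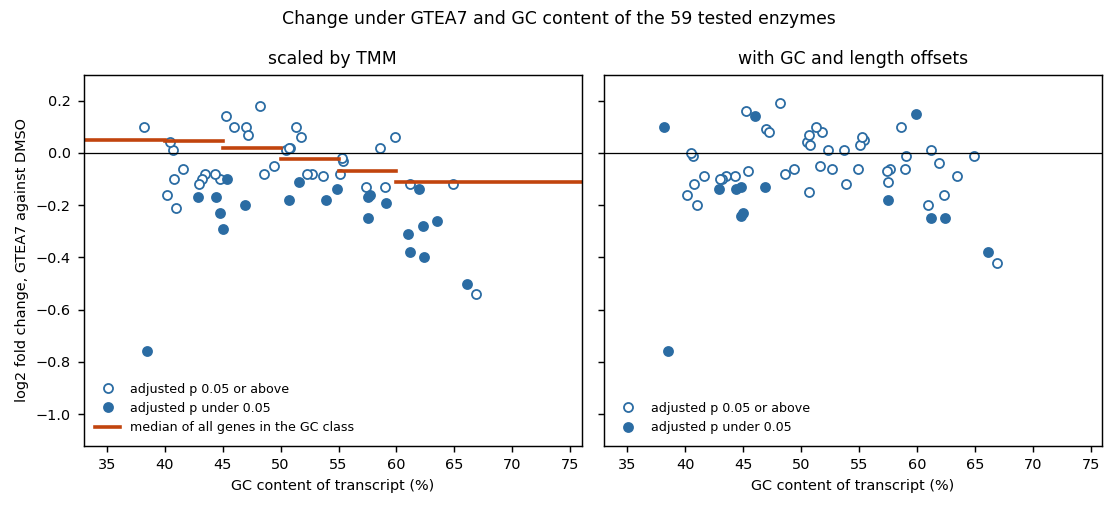
Log2 fold change with GTEA7 against DMSO over the GC content (%) of each enzyme's transcript, scaled by TMM on the left and with GC and length offsets on the right (filled points: adjusted p under 0.05; lines: median of all genes in each GC class). On the left 7 of the 10 enzymes above 60% GC fell, with a median of -0.293 over the 10. Medians of the enzymes in the classes between 40% and 60% GC run from -0.134 to 0.00884. The 2 enzymes at or below 40% GC have a median of -0.331. KDM7A, at 38.5% GC, lies at -0.76 in both panels.

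Compared with GTEA1 directly, 17 enzymes were higher and 23 lower with GTEA7, against 36.2% and 36.4% of all genes and 72.7% in either direction. At 1.5-fold or more 7 were higher and 10 lower, against 20.3% and 18.2%, and at 2-fold or more 2 and 4, against 11.2% and 8.62%. With library size only the split was 26 higher and 21 lower. The enzymes furthest apart were DNMT3B (-1.65 ± 0.05, adjusted p = 1.4e-32), KDM6B (-1.47 ± 0.05, adjusted p = 4.3e-31), KDM7A (-1.19 ± 0.05) and KMT5C (-1.09 ± 0.09), lower with GTEA7, and KAT2B (1.58 ± 0.11, adjusted p = 1.3e-17), KDM3A (1.03 ± 0.04), DNMT1 (0.97 ± 0.03) and HDAC1 (0.84 ± 0.04), higher with GTEA7. Of the enzymes called with both extracts, each against the same DMSO libraries, KDM5B, KDM6B, KDM7A, KMT2C and KMT5C rose with GTEA1 and fell with GTEA7. DNMT3B, HDAC6, KDM4A, KDM5C and SIRT7 did so too, but lost the GTEA7 call with the offsets. Both calls of KMT2C ended on omission of single libraries, as given above. KDM3A, KDM4B, KMT2A and SIRT3 fell with both extracts, as did HDAC7, HDAC11, KAT6A and KDM2A, whose GTEA7 calls were lost with the offsets. The GTEA1 calls of KAT6A and KMT2A were lost with the offsets, and the GTEA7 call of SIRT3 without DMSO replicate 3. Among those lower with both, the difference of GTEA7 from GTEA1 itself passed for KDM3A (1.03 ± 0.04, adjusted p = 2.6e-21) and KDM4B (0.13 ± 0.05, adjusted p = 0.011). The between-extract call of KDM4B ended on omission of GTEA7 replicate 4, at 0.10. DNMT3A, HDAC3, KMT2E and SIRT1 were among those that passed with neither extract.

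Levels per kilobase of the longest coding transcript ordered the enzymes as follows. HDAC1 was highest in DMSO, at 149 CPM per kb, followed by KDM1A at 82.3, DNMT1 at 50.7 and EZH2 at 44.1. With GTEA1 these levels were 80.5 for HDAC1, 55.3 for KDM1A, 25.4 for DNMT1 and 30.9 for EZH2. SIRT7, at 42.6 with GTEA1 and 26.7 with DMSO, and HDAC3, at 35.7 and 38, then stood above both DNMT1 and EZH2. DNMT3B was at 25.6 with GTEA1, close to DNMT1, and at 9.24 with DMSO. At the low end HDAC9 and HDAC10 were near 0.651 and 0.565 CPM per kb in DMSO. The length of 1 transcript stands for each gene, so close neighbours in this order cannot be ranked.

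**Figure D4:**
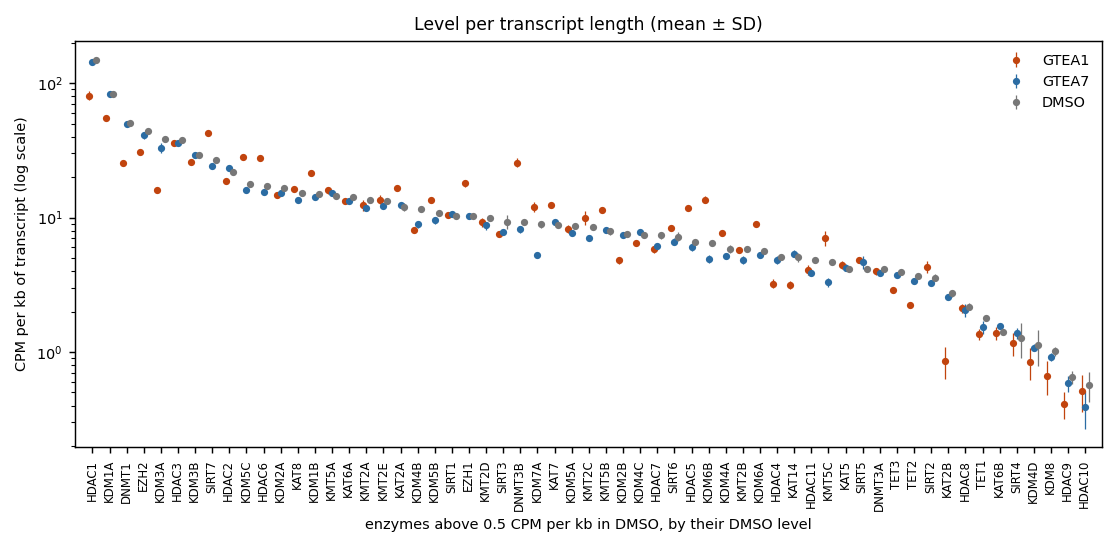
CPM per kilobase of transcript (log scale) of 59 enzymes above 0.5 in DMSO, ordered by their DMSO level (points: mean over 4 GTEA1, 4 GTEA7 and 3 DMSO libraries; bars: SD). HDAC1 leads in every group, and DNMT3B with GTEA1 (25.6) stands far above its neighbours in the order.

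Enzymes outside the naming rule were counted too. Their counts stand beside 35.6% of all genes higher and 36.2% lower with GTEA1, and 12% and 10.4% with GTEA7. The same shares apply to every other gene list here. Of 21 tested lysine methyltransferases without a KMT or EZH symbol 6 rose and 13 fell with GTEA1. The deepest falls with GTEA1 were those of SETMAR (-2.18 ± 0.15), SUV39H1 (-1.39 ± 0.15) and SUV39H2 (-0.94 ± 0.07), of which the SUV39 pair makes the trimethyl mark on H3 lysine 9. With GTEA7 2 rose (SETD7 0.30 and SMYD3 0.19) and 5 fell (DOT1L -0.20, EHMT1 -0.13, PRDM2 -0.32, SETD1A -0.15 and SMYD2 -0.19). Of 12 JmjC proteins without a KDM symbol 6 rose and 3 fell with GTEA1, with a median of 0.21, led by HR (-1.91 ± 0.06), RIOX1 (-1.39 ± 0.20) and JARID2 (1.32 ± 0.04). With GTEA7, 1 rose (RIOX2 0.38) and 1 fell (HR -0.54). Of 14 partners and readers of DNA methylation 6 rose and 5 fell with GTEA1. With GTEA7 CDCA7 rose (0.16) and the methyl-CpG reader MBD1 fell (-0.18).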

How the data were processed

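Polyadenylated RNA of 11 HCT116 libraries was measured. The authors deposited raw read counts per gene in 1 table, and all of its columns were used. Per the labels' protocols, RNA came by TRIzol, poly-T beads and a NEBNext Ultra kit and was read on a NovaSeq. The submitters' processing notes list HTSeq 0.5.4, DESeq 1.10.1, STAR, SAMtools 0.1.18, GATK and Picard without roles. Not given in the sources used here are the build, the annotation and the strand setting of the counting, so reads in bases shared by 2 genes cannot be assigned. By GENCODE v29, 29 of the 62 enzymes share exon bases with another gene. Among those not described above, HDAC7 does so with SLC48A1 (3658 counts against 4617), which rose by 0.88 with GTEA1. KAT7 shares bases with FAM117A (3800 against 17367), KAT5 with RNASEH2C (1293 against 1738) and KMT2E with SRPK2 (15453 against 15731). KDM4C does so with AL354707.1 (965 against 5980) and KDM8 with AC109449.1 (45 against 374).

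Symbols came from a gene name table for 60370 of 60624 Ensembl IDs, and other IDs held 0.727% of counts. The members and gene lists were chosen with earlier results of these data known. Genes kept by filterByExpr were fitted in a single model of 11 libraries with edgeR 4.0.16 in R 4.3.3 (TMM, robust quasi-likelihood, F test, Benjamini-Hochberg). CPM use TMM factors. Standard errors derive from the fold change and its F, and intervals are 1.96 standard errors. Values in every library are given for the 2 deepest falls and 2 highest rises per family and extract with a mean of at least 1 CPM, and for members called in opposite directions, 33 in all. Of each other list, up to 3 members with the largest change are named, and all where 5 or fewer are counted, except that some genes are not reported here. No 2 libraries agreed within sampling noise. The fit was tested on simulated data. Alternatives were DESeq2 size factors, library size only, no low-count filter, a filter of 1 CPM in 3 libraries, a replicate block, a fit of 2 groups, limma-voom 3.58.1, the Wald test of DESeq2 1.42.0, leaving out each library, and, added after seeing the data, offsets for GC content and length. These had values for 17089 of the 17963 tested genes and all 59 members. Promoters are RefSeq's, on GRCh38.p14.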

Additional observations from a re-analysis of the deposited data

Results flagged for a closer look

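Among 118 groups of 4 libraries, 9 held a library far from the other 3 by Dixon's test, which chance gives in about 1 of 20. With GTEA7, replicate 3 stood apart for HDAC2 (251 CPM), HDAC6 (60.9 CPM), KAT6A (121 CPM) and TET2 (36.3 CPM), replicate 4 for KDM7A (52.5 CPM) and replicate 2 for TET3 (41.2 CPM). With GTEA1, replicate 1 stood apart for KDM4B (43.7 CPM) and TET1 (10.7 CPM) and replicate 4 for KDM2B (22.9 CPM). The GTEA7 call of KAT6A ended without replicate 3 (log2 fold change -0.09, adjusted p = 0.12), while KDM7A without replicate 4 was at -0.79, adjusted p = 1.3e-14 and still passed. The cause was not tested.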

How the results depend on the processing

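Of the 46 enzymes called with GTEA1, 35 kept their call under every alternative, as did 8 of 22 with GTEA7 and 36 of 40 for GTEA7 against GTEA1. The count of enzymes higher with GTEA7 than with DMSO, 0 in the reported fit, was 2 with DESeq2 size factors, 1 with no low-count filter, 2 with only the 2 compared groups and 3 with GC content and length offsets, which gave 11 lower. Library size only gave 26 enzymes higher with GTEA7 than with GTEA1, and the median of all genes shifted by -0.167 for GTEA1, -0.0597 for GTEA7 and 0.109 for GTEA7 against GTEA1. Among enzymes that passed in the reported fit or in the alternative, those that changed sign under library size only were KMT2E (-0.11), KMT5A (-0.03) and SIRT1 (-0.14) for GTEA1 against DMSO and KDM5A (0.01) for GTEA7 against GTEA1. With the offsets KAT6A came to 0.00 for GTEA1 against DMSO and -0.07 for GTEA7 against GTEA1, and SIRT1 to -0.11 in the same contrast of extracts. The cause was not tested.

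Leaving out each library gave 18 to 21 enzymes higher and 22 to 26 lower with GTEA1, and 0 to 2 higher and 13 to 24 lower with GTEA7, where DMSO replicate 3 gave the 13. For GTEA7 against GTEA1 it gave 16 to 19 and 22 to 25. Genes called over the whole table ran from 12433 to 12860, 2973 to 4470 and 12526 to 13204. The replicate numbers are not said to mark pairs, and correlations of same-numbered deviations from the group means ran from -0.0569 to 0.0463. With the replicate block 21 enzymes were higher and 25 lower with GTEA1, 0 and 23 with GTEA7, and 17 and 23 for GTEA7 against GTEA1, with 12725, 4087 and 13016 genes called. Depth limits enzymes with few counts, such as HDAC10 (225), SIRT4 (278) and KDM8 (374).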

Other observations

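Genes that supply the enzymes' cosubstrates were measured as well: S-adenosylmethionine for methylation, acetyl-CoA for acetylation, NAD for sirtuins and 2-oxoglutarate for the JmjC and TET enzymes. Of 20 tested, 8 rose and 10 fell with GTEA1, led by ACSS2 (2.07 ± 0.04), NMNAT2 (1.97 ± 0.30) and MTAP (-1.30 ± 0.03). ACSS2 makes acetyl-CoA from acetate and NMNAT2 makes NAD. With GTEA7, 5 rose (ACLY 0.40, ACSS2 0.87, IDH1 0.48, MAT2A 0.27 and NAMPT 0.47). ACSS2 was at 211 ± 6.6 CPM with GTEA1, 91.7 ± 1.8 with GTEA7 and 50.3 ± 3.3 with DMSO. Of these GTEA7 rises, NAMPT makes the NAD precursor NMN, ACLY makes acetyl-CoA from citrate and MAT2A makes S-adenosylmethionine. The summed level of the list was 2207 to 2272 CPM with GTEA1, 2510 to 2551 with GTEA7 and 2170 to 2200 with DMSO.

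Of 10 tested arginine methyltransferases and their cofactors, 2 rose (PRMT5 0.21 and PRMT9 0.66) and 2 fell (PRMT6 -1.26 and WDR77 -0.69) with GTEA1. With GTEA7, 4 rose (CLNS1A 0.17, PRMT1 0.10, PRMT3 0.32 and WDR77 0.21).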
